A study of Mus musculus with 28 samples.

Results

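Under control IgG2a, regulatory T (Treg) cells sorted from CT2A tumors were compared with Treg cells sorted from spleens, to ask which genes distinguish Treg cells in the GBM from those in a lymphoid organ of tumor-bearing mice. The members were 12 of the 28 libraries of the series, 5 from GBM and 7 from spleen, and 7380 of 53801 features with a mean above 10 TPM in either group (TPM is a transcript's length-scaled share of its library). Genes that the study itself names in its text or plots enter only counts, sums and list levels, apart from Foxp3, which is given to check the sort. CT2A is a mouse glioma cell line grown in the forebrain of C57BL/6 mice, and every mouse that gave these 12 libraries carried such a tumor and received the IgG control antibody, 250 µg in 4 doses 3 days apart, starting when tumors reached 2 mm3. Tissues were harvested 2 days after the last dose and the series' design text gives each sample of a tissue as coming from a different mouse. Of the 7 spleens 4 carry the same label number (spleen_79_a to spleen_79_d), whose meaning is not given in the sources used here. Treg cells were gated as T cell receptor positive, CD4+, CD25hi and CD127lo, which selects on surface proteins and not on Foxp3 itself, and the ages of the mice were not given in the sources used here. A second pair of groups received αPD1 + αGITR instead of IgG2a and is used below only for the same contrast, GBM against spleen, in 7 and 8 libraries.

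Treg cells are CD4 T cells that restrain immune responses and that are specified by the transcription factor Foxp3. Those that circulate through lymphoid organs keep genes of the resting state, such as Tcf7, Lef1, Ccr7 and S1pr1, while those in tissues and tumors are known for effector regulators, chemokine receptors and suppressive molecules. Interferons switch on a shared set of antiviral genes in nearly every cell type, through STAT and IRF factors that bind short motifs in promoters.

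The libraries differed among themselves before any comparison of tissues. The 6 Treg markers Foxp3, Il2ra, Ikzf2, Ctla4, Cd4 and Cd3e summed to between 842 and 1588 TPM in GBM, and between 167 and 1525 TPM in spleen. The libraries spleen_79_a and spleen_79_d held the lowest sums, 167 to 193 TPM against 388 TPM or more in the other spleens. In those 2 libraries and in tumor_369_a the most abundant feature was Gm26870, whereas it was CT010467.1 in the other 9. The library tumor_369_a had the fewest features above 1 TPM, 7702, and tumor_79_a had the highest sum of 24 macrophage and microglia markers, 18238 TPM against 352 to 1110 TPM in the other GBM libraries and 243 to 808 TPM in spleen. Library spleen_79_b had the highest Treg marker sum of the spleens. List counts of higher genes without tumor_369_a, without tumor_79_a, without spleen_79_b or without spleen_79_a and spleen_79_d are given below where they moved by over 1.5 times. Foxp3 measured 116 to 240 TPM in GBM against 54.4 to 355 TPM in spleen, for a log2 change of 0.30 (SE 0.72, limma adjusted p = 0.888), and its groups overlapped.

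**Figure D1:**
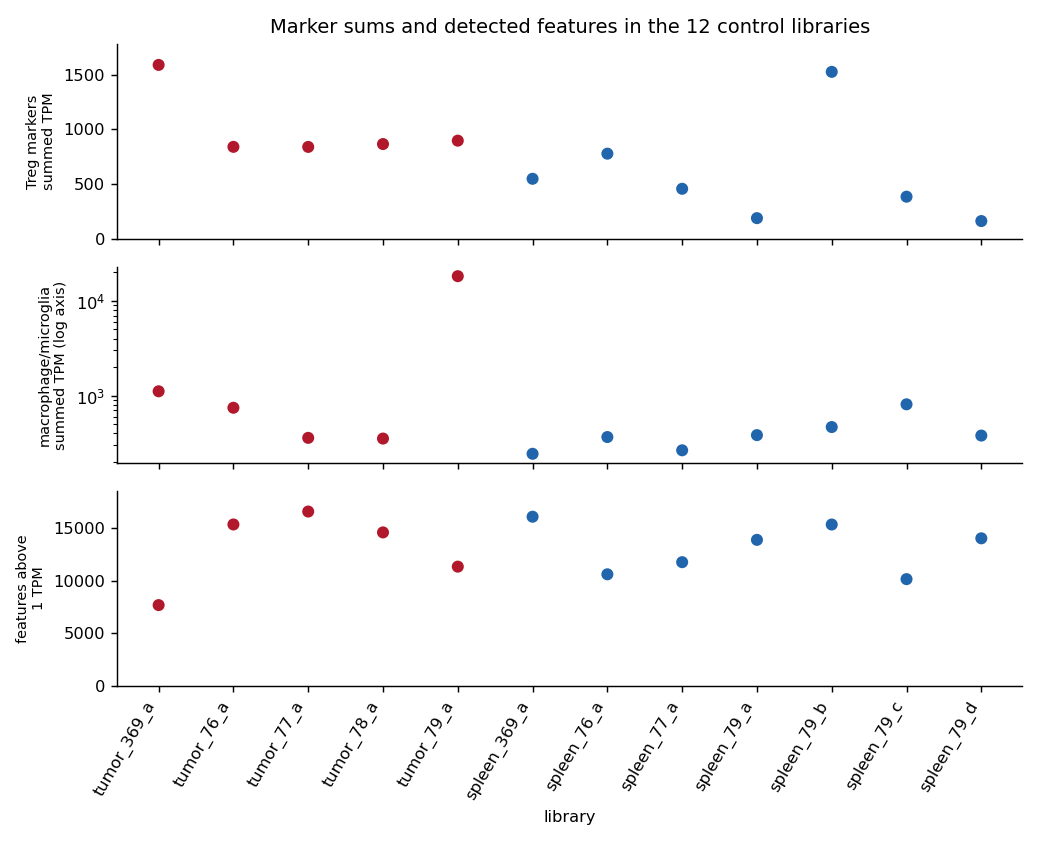
Summed TPM of 6 Treg markers, summed TPM of 24 macrophage and microglia markers (log axis) and number of features above 1 TPM in each control library, GBM in red and spleen in blue. Library tumor_79_a stands out in the macrophage panel at 18238 TPM, tumor_369_a has 7702 features, and spleen_79_a and spleen_79_d have the lowest Treg marker sums.

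Of the 7380 genes, 36 were higher in GBM Treg cells (0.488% of those tested) and 6 were lower (0.0813%) at a Benjamini-Hochberg adjusted p under 0.05 in limma on log2(TPM + 1). In 30 of the 36 every GBM library lay above every spleen library, and in 3 of the 6 every GBM library lay below. Over all genes tested, such separation was found for 1.25% in the higher and 0.230% in the lower direction. At a looser threshold without adjustment, p below 0.05 and over 2-fold, here called the fold threshold, 563 genes were higher (7.63%) and 170 lower (2.30%). The median log2 fold change of all tested genes was 0.48, so that GBM levels were on balance above spleen levels, and this shift was 0.20 with TMM-type factors, 0.04 after quantile normalization and 0.05 without spleen_79_a and spleen_79_d, and 0.72 without tumor_369_a and 0.68 without spleen_79_b. Without those spleens 417 genes were higher and 396 lower at the fold threshold, and without tumor_369_a 735 were higher and 110 lower. In bulk libraries fewer cells of a type and less RNA per cell cannot be told apart. Of the 42 called genes, 13 are named by the study and the other 29, 23 higher and 6 lower, are described here.

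**Figure D2:**
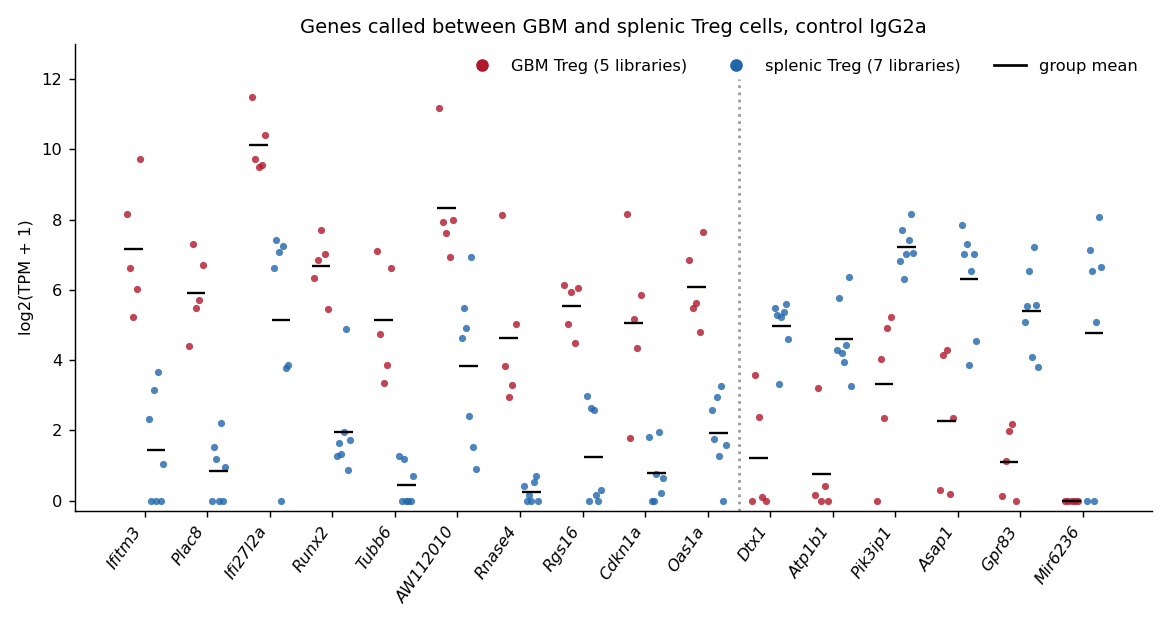
TPM of the 10 genes with the largest rise among the 23 described here and of the 6 genes that fell, as log2(TPM + 1), in each of 5 GBM (red) and 7 spleen (blue) libraries, with group means as black bars. The groups do not overlap for 9 of the 10 risen genes, Cdkn1a having 1 GBM library within the spleen range, and all 5 GBM libraries are at 0 for Mir6236.

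Interferon-stimulated genes gave 4 of the 23 risen genes, Ifitm3, Ifi27l2a, Oas1a and Bst2. Ifitm3, a membrane protein that blocks viral entry, measured 287, 96.5, 36.6, 63.8 and 839 TPM in GBM libraries tumor_369_a, tumor_76_a, tumor_77_a, tumor_78_a and tumor_79_a, and the spleens had a lowest, median and highest value of 0, 1.04 and 11.6 TPM. The lowest GBM library was thus above the highest spleen, and the highest was tumor_79_a, the library with the macrophage transcripts. Its log2 fold change was 5.70 (SE 0.93, limma adjusted p = 0.00120), and it was 5.06 without tumor_79_a (limma adjusted p = 0.0111).

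Ifi27l2a, an interferon-induced membrane protein, was the most abundant of them, with 2891, 846, 723, 749 and 1354 TPM in the same order of GBM libraries and 0, 97.3 and 169 TPM as the lowest, median and highest spleen value. The highest spleen stayed far below the lowest GBM library. The log2 fold change was 5.00 (SE 0.97, limma adjusted p = 0.00790).

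Oas1a, an oligoadenylate synthetase that senses double-stranded RNA, had 115, 43.7, 48.4, 26.7 and 199 TPM in GBM against 0, 2.36 and 8.64 TPM as the lowest, median and highest in spleen. Bst2, also called tetherin, which holds budding viruses at the cell surface, had 264, 78, 61.5, 71.7 and 617 TPM in GBM against 0.690, 9.09 and 48.9 TPM in spleen. The groups were separate for both genes, and GBM libraries tumor_369_a and tumor_79_a were the 2 highest for each. The log2 fold changes were 4.17 for Oas1a (SE 0.85, limma adjusted p = 0.0119) and 3.94 for Bst2 (SE 0.91, limma adjusted p = 0.0310). The Bst2 call was lost without tumor_79_a, at a log2 fold change of 3.41 (limma adjusted p = 0.125), without tumor_369_a, at 3.72 (limma adjusted p = 0.0732), and without spleen_79_a and spleen_79_d, at 3.09 (limma adjusted p = 0.102). Oas1a has near copies such as Oas1g (mean 16.3 TPM in GBM against 1.39 TPM in spleen), and reads may have been divided between them.

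The promoters of 3 of these genes are shown because they hold the motif of interferon-stimulated genes. The windows run from 250 bases before to 50 bases after the gene start, from RefSeq on GRCm38.p6, 5′ to 3′ on the gene's strand, with motif matches in capitals. The motifs searched on both strands were the interferon-stimulated response element (GAAA and again GAAA after a gap of 2 bases), the STAT site TTCNNNGAA, the AP-1 site TGANTCA and the forkhead site TGTTTAC. Ifitm3 (chr7:141010695-141010994, minus strand) holds an AP-1 match at position 146 of the window, response elements at positions 253 and 270, and a STAT match at position 264 that runs into the second element. Oas1a (chr5:120907476-120907775, minus strand) holds response elements that overlap each other at positions 231 and 237 and a STAT match at 153, and Bst2 (chr8:71537423-71537722, minus strand) has them at 121 and 127 with a STAT match at 115.

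Ifitm3: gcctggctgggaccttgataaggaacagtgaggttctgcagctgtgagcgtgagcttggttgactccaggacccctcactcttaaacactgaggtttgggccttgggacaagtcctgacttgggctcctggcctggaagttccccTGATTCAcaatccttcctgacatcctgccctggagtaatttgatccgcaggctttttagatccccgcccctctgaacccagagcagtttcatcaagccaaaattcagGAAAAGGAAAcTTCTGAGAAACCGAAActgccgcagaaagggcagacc
Oas1a: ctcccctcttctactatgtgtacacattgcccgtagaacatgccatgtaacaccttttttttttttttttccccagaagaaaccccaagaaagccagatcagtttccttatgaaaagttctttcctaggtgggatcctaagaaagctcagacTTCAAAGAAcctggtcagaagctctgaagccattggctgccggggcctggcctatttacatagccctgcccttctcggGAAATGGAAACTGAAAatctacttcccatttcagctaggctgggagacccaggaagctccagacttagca
Bst2: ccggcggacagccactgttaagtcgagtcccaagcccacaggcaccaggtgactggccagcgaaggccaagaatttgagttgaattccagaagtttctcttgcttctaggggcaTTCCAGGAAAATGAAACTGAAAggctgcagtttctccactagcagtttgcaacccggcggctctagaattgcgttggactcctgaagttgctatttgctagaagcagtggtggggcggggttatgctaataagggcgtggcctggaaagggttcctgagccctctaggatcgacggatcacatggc

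Among promoters of the 46 tested genes in an interferon-stimulated list, 32 were matched in the RefSeq table and 21 of them (65.6%) held the response element, against 3.49% of all 27025 promoters and 3.74% of the 4896 matched promoters of tested genes. Of the 36 genes called higher, 24 were matched, and 3 held the response element (12.5%), 7 the STAT site (29.2% against 8.47% of all and 7.39% of tested promoters) and 5 the AP-1 site (20.8% against 7.93% and 4.72%). The response element was found in Ifitm3, Oas1a and Bst2 only. No forkhead match was found in these 24, against 3.55% of all and 2.55% of tested promoters, shares at which 24 promoters hold few matches or none. Of the 6 genes called lower, 4 were matched and none held any of the 4 motifs. A match describes letters in the window and is not evidence of binding.

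Across the interferon-stimulated list, 46 of its 50 genes were tested, 29 passed the fold threshold as higher (63.0%, against 7.63% of all genes) and none as lower. The median log2 fold change of the list was 2.34, beside 0.48 for all genes, and 45 of 46 values were positive, Irf9 at -0.19 being the exception. Beyond the 4 called genes, Ifit3 had a log2 fold change of 3.73 and Zbp1, a nucleic acid sensor, of 3.41, and in 13 of the 46 every GBM library lay above every spleen, against 1.25% of all genes. The median of the 46 genes within a library, on the log2(TPM + 1) scale, was 4.66 to 6.07 in GBM and 1.26 to 4.78 in spleen, with spleen_79_b alone reaching the GBM range. With TMM-type factors 28 genes passed and the median was 2.12, after quantile normalization 28 and 1.65. Without tumor_79_a, 23 of 42 tested genes passed, without tumor_369_a 31 of 45, and without spleen_79_a and spleen_79_d 23 of 46, at medians of 2.11, 2.24 and 1.67.

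**Figure D3:**
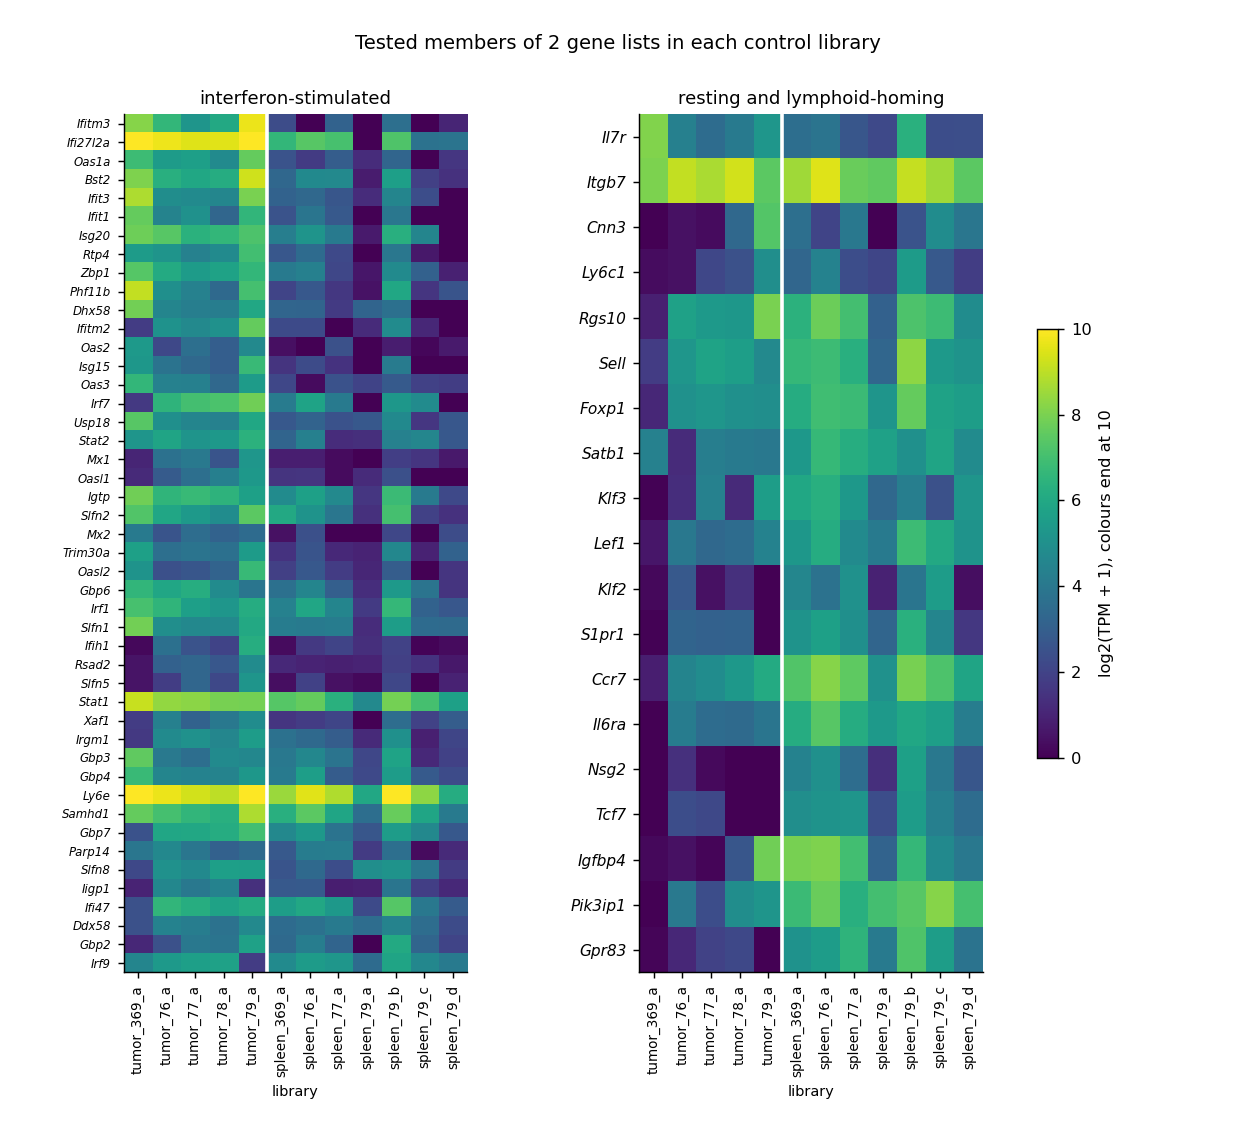
Level, as log2(TPM + 1) by colour, of the tested members of the interferon-stimulated list (46 genes) and of the resting and lymphoid-homing list (19 genes) in each control library, genes ordered by fold change and a white line dividing the 5 GBM from the 7 spleen libraries. The upper rows of the interferon panel are brighter in GBM and the lower rows of the resting panel are darker in GBM, and tumor_369_a is darkest for most resting genes.

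Among the described genes, the largest rises outside the interferon list were of Plac8 and Runx2. Plac8, a small cysteine-rich protein, measured 19.9, 158, 43.4, 51.8 and 103 TPM in GBM libraries tumor_369_a, tumor_76_a, tumor_77_a, tumor_78_a and tumor_79_a, and 0, 0.920 and 3.64 TPM as the lowest, median and highest spleen. Every GBM library was over 5 times the highest spleen. The log2 fold change was 5.08 (SE 0.87, limma adjusted p = 0.00207). Runx2, a runt-family transcription factor known from bone formation, measured 80.3, 113, 206, 129 and 42.9 TPM in GBM against 0.840, 2.10 and 28.7 TPM in spleen. Here tumor_79_a was the lowest of the 5, and spleen_79_b was the only spleen near the GBM range. Its log2 fold change was 4.72 (SE 0.85, limma adjusted p = 0.00333), and 5.02 without tumor_79_a. The Plac8 promoter (chr5:100572156-100572455, minus strand) and the Runx2 promoter (chr17:44814578-44814877, minus strand) held none of the 4 motifs.

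Plac8: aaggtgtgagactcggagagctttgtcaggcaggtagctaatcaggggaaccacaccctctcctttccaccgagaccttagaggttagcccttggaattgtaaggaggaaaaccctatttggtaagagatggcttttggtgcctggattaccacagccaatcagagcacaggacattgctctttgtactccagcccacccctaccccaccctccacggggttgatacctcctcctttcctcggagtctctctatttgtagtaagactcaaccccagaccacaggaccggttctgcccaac
Runx2: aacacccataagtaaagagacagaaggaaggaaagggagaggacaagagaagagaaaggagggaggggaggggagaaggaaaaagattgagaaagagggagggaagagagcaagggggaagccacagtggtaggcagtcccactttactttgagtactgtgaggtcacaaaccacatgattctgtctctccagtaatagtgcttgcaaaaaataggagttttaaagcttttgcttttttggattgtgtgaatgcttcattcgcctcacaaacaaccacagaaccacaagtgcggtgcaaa

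Tubb6, a beta-tubulin, had 135, 25.8, 9.21, 13.5 and 98.2 TPM in GBM, and spleens had 0, 0 and 1.41 TPM as lowest, median and highest. AW112010, annotated as a long noncoding RNA, had 2292, 245, 195, 121 and 250 TPM in GBM against 0.870, 23.6 and 121 TPM in spleen. The groups did not overlap for either gene, although for AW112010 the lowest GBM and highest spleen libraries were at nearly the same level and tumor_369_a was far above all others. The log2 fold changes were 4.68 (SE 0.92, limma adjusted p = 0.00790) and 4.50 (SE 0.95, limma adjusted p = 0.0157). The AW112010 call was lost without tumor_369_a, at a log2 fold change of 3.79 (limma adjusted p = 0.0704), and without spleen_79_a and spleen_79_d, at 3.63 (limma adjusted p = 0.0750). The AW112010 promoter (chr19:11050517-11050816, minus strand) held none of the motifs.

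AW112010: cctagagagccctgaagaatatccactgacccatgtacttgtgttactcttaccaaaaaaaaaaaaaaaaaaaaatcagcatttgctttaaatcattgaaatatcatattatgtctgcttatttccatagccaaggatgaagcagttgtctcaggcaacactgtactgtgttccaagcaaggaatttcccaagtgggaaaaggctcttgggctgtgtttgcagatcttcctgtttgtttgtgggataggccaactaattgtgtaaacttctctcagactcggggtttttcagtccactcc

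Rnase4, a secreted ribonuclease, measured 278, 13.1, 6.65, 8.68 and 31.8 TPM in GBM against 0, 0.11 and 0.630 TPM in spleen. Rgs16, which shortens signals of G-protein-coupled receptors such as chemokine receptors, measured 69.5, 31.6, 60.1, 21.6 and 65.0 TPM in GBM against 0, 0.230 and 6.86 TPM in spleen. Rnase4 in GBM was led by tumor_369_a, while Rgs16 ranged from 21.6 to 69.5 TPM over the 5. The log2 fold changes were 4.38 for Rnase4 (SE 0.97, limma adjusted p = 0.0226) and 4.29 for Rgs16 (SE 0.89, limma adjusted p = 0.0127). The Rnase4 call was lost without tumor_369_a, without tumor_79_a, and without spleen_79_a and spleen_79_d, at 3.51 to 4.28. Rnase4 shares its genomic locus with Ang (mean 10.1 TPM in GBM against 1.35 TPM in spleen), so reads may have been shared between them. Cdkn1a, an inhibitor of cyclin-dependent kinases that arrests the cell cycle, measured 286, 2.41, 34.8, 19.4 and 57.2 TPM in GBM against 0, 0.570 and 2.89 TPM in spleen. Library tumor_76_a was inside the spleen range. The log2 fold change was 4.29 (SE 0.98, limma adjusted p = 0.0284), and the call was lost without tumor_369_a, at 3.52 (limma adjusted p = 0.0961), without tumor_79_a, at 4.09 (limma adjusted p = 0.0887), and without spleen_79_a and spleen_79_d, at 4.27 (limma adjusted p = 0.0865).

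The other 12 risen genes had log2 fold changes of 3.29 to 4.13, and they covered signalling, the lysosome and surface and secreted proteins. Ifngr1, a chain of the interferon-gamma receptor, was 540 ± 174 TPM in GBM (SD, n = 5) and 73.7 ± 62.7 TPM in spleen (SD, n = 7). Rbpj, the transcription factor of the Notch pathway, was 86.3 ± 112 TPM in GBM against 4.33 ± 3.62 TPM in spleen, and tumor_369_a held 286 TPM of it. Crem, a transcriptional modulator of cyclic AMP responses, was 54.1 ± 41.7 TPM in GBM against 3.67 ± 2.80 TPM in spleen. All 3 had GBM values above every spleen, and Ifngr1 had the smallest spread relative to its mean in GBM. Their log2 fold changes were 3.29, 3.59 and 3.57.

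Fgl2, a secreted protein known as a suppressive product of Treg cells, was 55.8 ± 24.5 TPM in GBM (n = 5) against 3.78 ± 4.06 TPM in spleen (n = 7), for a log2 fold change of 3.85 (SE 0.85, limma adjusted p = 0.0226). Lgals1, a lectin that binds galactosides, was 434 ± 269 TPM in GBM against 69.0 ± 114 TPM in spleen, its log2 fold change was 4.10, and 2 GBM libraries lay below the highest spleen. Rnf125, a ubiquitin ligase, and Glrx, a glutaredoxin, had log2 fold changes of 3.82 and 3.84. Lamp2, a lysosomal membrane protein, and Ctla2a, an inhibitor of cysteine proteases, had 3.60 and 3.56. Rapsn, known for clustering acetylcholine receptors at the muscle synapse, had 4.13, and Sv2c, a synaptic vesicle protein, had 3.87. Gm6637, annotated as a processed pseudogene, had 3.93, and its reads may belong to its parent gene. Ctla2a has the near copy Ctla2b (mean 8.24 TPM in GBM against 0.699 TPM in spleen), and reads of either may have been divided.

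Over the 23 risen genes, 19 had no overlap between the groups and none had a GBM library at 0. The highest GBM value lay in tumor_369_a for 12 of them and in tumor_79_a for 6. Of the 29 described genes, 14 kept their call without tumor_79_a, 14 without tumor_369_a and 15 without spleen_79_a and spleen_79_d, and 10 kept it in each of these 3 fits, namely Ifitm3, Plac8, Ifi27l2a, Runx2, Tubb6, Rgs16, Oas1a, Glrx, Pik3ip1 and Gpr83. When each of the 12 libraries was left out in turn, 13 to 28 of the 29 kept their call, fewest without tumor_77_a, and 8 kept it throughout, the same 10 without Rgs16 and Pik3ip1. All 29 kept their direction in those first 3 fits, which were made on most of the libraries that had chosen the genes. With GBM libraries tumor_369_a and tumor_79_a left out together, which leaves 3 GBM libraries, Plac8 and Runx2 remained called, at log2 fold changes of 5.33 and 5.23.

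The 6 genes that fell were Mir6236, Gpr83, Asap1, Pik3ip1, Atp1b1 and Dtx1. Gpr83, a G-protein-coupled receptor known from resting Treg cells, measured 0.1, 1.17, 2.97, 3.51 and 0 TPM in GBM libraries tumor_369_a, tumor_76_a, tumor_77_a, tumor_78_a and tumor_79_a, and 13.1, 45.5 and 149 TPM as the lowest, median and highest spleen. Pik3ip1, an inhibitor of PI3-kinase that marks quiescent T cells, measured 0, 15.3, 4.11, 29.1 and 36.4 TPM in GBM against 77.8, 132 and 286 TPM in spleen. Both genes had every GBM library below every spleen. The log2 fold change of Gpr83 was -4.33 (SE 0.85, limma adjusted p = 0.00790) and that of Pik3ip1 -3.91 (SE 0.84, limma adjusted p = 0.0177). The promoters of Gpr83 (chr9:14859960-14860259, plus strand) and Pik3ip1 (chr11:3330481-3330780, plus strand), shown as those of the 2 largest falls among the genes matched in the promoter table, held none of the motifs.

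Gpr83: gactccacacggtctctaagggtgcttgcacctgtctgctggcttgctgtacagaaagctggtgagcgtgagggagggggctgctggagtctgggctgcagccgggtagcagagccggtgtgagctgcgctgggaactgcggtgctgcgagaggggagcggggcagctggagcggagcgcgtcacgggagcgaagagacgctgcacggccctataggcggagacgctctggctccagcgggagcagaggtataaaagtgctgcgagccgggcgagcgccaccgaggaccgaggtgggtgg
Pik3ip1: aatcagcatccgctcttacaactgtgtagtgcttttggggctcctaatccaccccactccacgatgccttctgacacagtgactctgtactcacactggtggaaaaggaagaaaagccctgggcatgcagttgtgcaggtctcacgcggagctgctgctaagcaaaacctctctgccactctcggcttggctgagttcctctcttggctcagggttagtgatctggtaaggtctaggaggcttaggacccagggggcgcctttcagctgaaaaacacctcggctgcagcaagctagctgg

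Dtx1, a ubiquitin ligase linked to Notch signalling, measured 0, 10.9, 4.19, 0.0700 and 0 TPM in GBM against 9.04, 38.1 and 47.7 TPM in spleen. Atp1b1, the beta subunit of the sodium pump, measured 0.120, 8.13, 0, 0.330 and 0 TPM in GBM against 8.61, 18.6 and 81.0 TPM in spleen. Asap1, which activates the GTPase of Arf proteins, measured 0.220, 16.8, 18.6, 0.130 and 4.11 TPM in GBM against 13.4, 128 and 231 TPM in spleen. For Dtx1, Atp1b1 and Asap1, tumor_76_a was the highest or second highest of the 5, and the groups were separate for Atp1b1 alone. The log2 fold changes were -3.77 for Dtx1 (limma adjusted p = 0.0310), -3.85 for Atp1b1 (limma adjusted p = 0.0310) and -4.05 for Asap1 (limma adjusted p = 0.0268). Mir6236, annotated as a microRNA gene, was listed at 0 in all 5 GBM libraries and also in spleen_369_a and spleen_79_a. The median and highest spleen had 91.0 and 269 TPM, and which transcripts these reads came from was not tested. The log2 fold change of Mir6236 was -4.78 (SE 1.17, limma adjusted p = 0.0466), with a two-sided exact permutation p of 0.0366.

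Genes of resting and lymphoid-homing T cells were mostly lower, in a list written with earlier results of these data known. Of 19 tested members, 13 passed the fold threshold as lower (68.4%, against 2.30% of all genes) and none as higher, with a median log2 fold change of -2.29. Of these 13, 2 are among the 6 genes called lower above and are counted again here. Tcf7, a transcription factor of resting and memory-like T cells, was 1.54 ± 2.12 TPM in GBM (n = 5) against 25.5 ± 14.6 TPM in spleen (n = 7), at a log2 fold change of -3.53 (limma adjusted p = 0.0531). Nsg2 was 0.362 ± 0.708 TPM in GBM against 19.3 ± 16.9 TPM in spleen. Ccr7, the receptor that guides T cells into lymph nodes, was 31.7 ± 24.9 TPM against 158 ± 93.3 TPM, and S1pr1, which lets them leave, 4.78 ± 4.35 TPM against 32.6 ± 26.3 TPM. The transcription factors Lef1, Satb1, Klf2, Foxp1 and Klf3 had log2 fold changes of -2.29, -2.07, -2.49, -2.02 and -2.20, none past the adjusted threshold. The list's median within a library was 0.23 to 4.93 in GBM and 3.28 to 6.34 in spleen, with tumor_369_a as the lowest GBM library. Without tumor_369_a, 11 of 19 members passed as lower, without tumor_79_a 13, and without spleen_79_a and spleen_79_d 15 of 21. Without spleen_79_b 13 of 18 passed as lower and 1 as higher. The counts were 14 with TMM-type factors and 15 after quantile normalization.

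Effector regulators had members on both sides. Of 19 tested members of a list of effector Treg transcription factors, 8 passed the fold threshold as higher (42.1%, against 7.63% of all genes). As lower 1 passed (5.26%, against 2.30% of all genes), and the median was 1.69. Without spleen_79_a and spleen_79_d 5 passed as higher and 1 as lower. Id2, a repressor of E proteins, was 92.3 ± 51.6 TPM in GBM against 12.1 ± 10.8 TPM in spleen, and Bhlhe40, a basic helix-loop-helix repressor, 31.8 ± 14.1 TPM against 3.42 ± 3.63 TPM. Their log2 fold changes were 3.12 and 3.31 (limma adjusted p = 0.0720 and 0.0753), with every GBM library above every spleen. Id3, the related E protein repressor, measured 21.0 ± 42.8 TPM in GBM against 64.0 ± 42.5 TPM in spleen, for a log2 change of -3.45 (limma adjusted p = 0.0901). Id3 was at 0.13 to 5.59 TPM in 4 GBM libraries and at 97.4 TPM in tumor_79_a, which lay within the spleen range of 19.1 to 131 TPM.

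Lists of suppressive mediators and of tissue residency also had shares above the 7.63% of all genes that passed the fold threshold as higher. Of 15 tested suppressive mediators 10 passed as higher (66.7%, median 2.56), 4 of them genes the study names, and none as lower. Beside Fgl2, the decoy receptor Il1r2 had a log2 fold change of 3.14, the cytokine subunit Ebi3 of 2.36 and the integrin chain Itgav of 2.57. None of these 3 passed the adjusted threshold (limma adjusted p = 0.182, 0.302 and 0.324). Only 3, 2 and 3 of the 5 GBM libraries lay above every spleen. Of 17 tested tissue Treg genes 11 passed as higher (64.7%, median 2.47), Rgs16 and Crem among those past the adjusted threshold. Itgae, the integrin chain that binds E-cadherin, was 40.4 ± 31.3 TPM in GBM against 5.68 ± 4.00 TPM in spleen, and Il1rl1, the interleukin-33 receptor of tissue Treg cells, 34.6 ± 53.0 TPM against 1.69 ± 2.22 TPM. Il1rl1 was at 129 TPM in tumor_369_a and at 4.69 to 22.4 TPM in the other GBM libraries, the lowest of which lay within the spleen range of 0 to 5.26 TPM. Itgae was at 96.4 TPM in tumor_369_a and at 24.4 to 28.8 TPM in the others. The tissue list's median within a library was 4.91 to 5.49 in GBM and 2.13 to 3.30 in spleen, without overlap. Without spleen_79_a and spleen_79_d 8 of 15 and 9 of 18 passed, beside 417 of all 7556 genes tested there.

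Chemokine genes had members in both directions. Among 18 tested chemokines and their receptors 10 passed as higher (55.6%, median 2.41) and 2 as lower (11.1%). Of all genes 7.63% passed as higher and 2.30% as lower. The 5 members past the adjusted threshold are all named by the study. The others named here were the chemokine Ccl5 at a log2 fold change of 3.51, Ccr8, a receptor of tumor Treg cells, at 3.45, the fractalkine receptor Cx3cr1 at 3.30 and Ccr7 at -2.67. In tumor_369_a Ccl5, Ccr8 and Cx3cr1 were at 7.94, 5.48 and 0.240 TPM, within the spleen range of each. Ccl5 in tumor_77_a (22.1 TPM) and Ccr8 in tumor_79_a (14.1 TPM) also lay below their highest spleens, 28.6 and 16.6 TPM. In the TNF receptor family 4 of 15 passed as higher (26.7%, median 0.93) and none as lower, and the median was 1.44 without tumor_369_a and 0.61 without spleen_79_a and spleen_79_d. Tnfrsf4, which encodes OX40, was 531 ± 327 TPM in GBM against 82.4 ± 76.4 TPM in spleen (log2 fold change 3.52, limma adjusted p = 0.0680), and Tnfrsf1b 139 ± 33.8 TPM against 31.9 ± 16.6 TPM. Every GBM library lay above every spleen for both receptors.

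The S100, annexin and galectin list had 9 of 18 tested members past the fold threshold as higher (50%, median 1.89) and none as lower. Of all genes 7.63% passed as higher and 2.30% as lower. S100a6, Anxa2 and Capg, calcium-regulated proteins of motile cells, had log2 fold changes of 3.34, 3.43 and 3.21 (limma adjusted p = 0.0531 for each). In integrins and adhesion 7 of 16 passed as higher (43.8%, median 1.24), with Vim, the intermediate filament vimentin, at 1590 ± 780 TPM in GBM against 387 ± 365 TPM in spleen, and Alcam at a log2 fold change of 3.27. Without spleen_79_a and spleen_79_d only 3 of 17 passed as higher and 2 as lower, beside 417 and 396 of all 7556 genes, and the median of the 17 was 0.10. Macrophages and glia also express many of these genes, and the sum of the macrophage list is given above for each group.

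Antigen presentation and the cytokine receptors had fewer such genes. Of 14 tested genes of MHC class I presentation 4 passed as higher (28.6%, median 1.29, and 0.53 without spleen_79_a and spleen_79_d), led by B2m, the light chain of class I molecules, at 2500 ± 1362 TPM in GBM against 467 ± 429 TPM in spleen, and Psme2 and Psmb9, parts of the immunoproteasome system, at 2.25 and 1.97. Among 26 genes of interleukin-2 and cytokine signalling 6 passed as higher (23.1%, median 0.69), with Il12rb2 at 3.08, Il10ra at 2.34 and Cish, a feedback inhibitor, at 1.80, and 10 passed without spleen_79_b. The median was 1.15 without tumor_369_a and 0.22 without spleen_79_a and spleen_79_d. In the T cell receptor list 2 of 29 passed in each direction (6.90%, beside 7.63% higher and 2.30% lower of all genes), with Sla and Sh2d2a higher and Ubash3a among the lower, and the counts were 1 to 4 higher and 0 to 2 lower when libraries were left out. Of the Treg identity list, 2 of 17 passed in each direction (4 as higher without spleen_79_b), and Capn3 had a log2 fold change of -3.09 with every GBM library below every spleen.

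Small gene families were examined whole. The GTPases of the Gimap family, which support lymphocyte survival, had 3 of 8 members past the fold threshold as higher (37.5%, against 7.63% of all genes). These were Gimap7 at 2.37, Gimap5 at 2.09 and Gimap4 at 1.91. Gimap9, Gimap6 and Gimap8 had log2 fold changes of 1.61, 1.34 and 1.09, and Gimap1 and Gimap3, the most abundant in spleen at means of 540 and 283 TPM, had -0.09 and 0.05, with signs that changed between fits. Without spleen_79_a and spleen_79_d none of the 8 passed, without tumor_369_a 1 of 7 and without spleen_79_b 5 of 8. In the Ly6 family, 4 of 8 genes were tested, of which Ly6c2 had a log2 fold change of 2.75, Ly6e of 1.45 and Ly6c1 of -1.11, while the fourth is labelled in a plot of the study. Of these 4 genes 2 passed as higher (50%, against 7.63% of all genes), and 1 of 3 without tumor_79_a. Ly6c1 and Ly6c2 are near copies, so reads may have been divided between them.

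Metabolic and growth lists varied in their shares. Of 27 tested genes of glycolysis and hypoxia 8 passed as higher (29.6%, median 1.26) and 1 as lower, including Aldoa, Tpi1 and Hif1a at 2.80, 2.88 and 2.41, and 13 passed as higher without tumor_369_a, while the median was 0.57 without spleen_79_a and spleen_79_d. Cell cycle genes had 7 of 51 as higher (13.7%, median 0.89), led by the inhibitors Cdkn1a and Cdkn2c, the latter at 3.26, with Aurkb, a mitotic kinase, at 2.72. Without spleen_79_a and spleen_79_d 2 of 51 passed, without tumor_79_a 4 of 50, without tumor_369_a 13 of 51 and without spleen_79_b 14 of 50, at medians of 0.34, 0.80, 1.34 and 1.38. Nuclear genes of oxidative phosphorylation had 4 of 73 as higher (5.48%, below the 7.63% of all genes, median 0.74). That count was 15 of 72 without spleen_79_b, 2 of 71 without tumor_79_a, 1 of 73 without tumor_369_a and 0 of 74 without spleen_79_a and spleen_79_d, where the median was -0.15. None of 79 ribosomal protein genes passed in either direction (1 of 78 as higher without spleen_79_b), and their median was 0.17, -0.14 with TMM-type factors and -0.25 after quantile normalization. Without spleen_79_a and spleen_79_d 10 of 79 passed as lower at a median of -0.73, and the median was -0.05 without tumor_79_a and 0.49 without spleen_79_b. None of 12 cholesterol and lipid synthesis genes passed, and 1 did as higher without tumor_369_a or without spleen_79_b. Immediate early genes had 2 of 26 as higher (7.69%, near the 7.63% of all genes), Fosl2 at 3.64 and Jun at 3.05, and 4 of 26 without tumor_369_a. Apoptosis genes had 3 of 18 as higher (1 to 5 when libraries were left out) and 1 as lower, the survival factor Bcl2 at 8.86 ± 11 TPM in GBM against 52.2 ± 28.7 TPM in spleen.

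**Figure D4:**
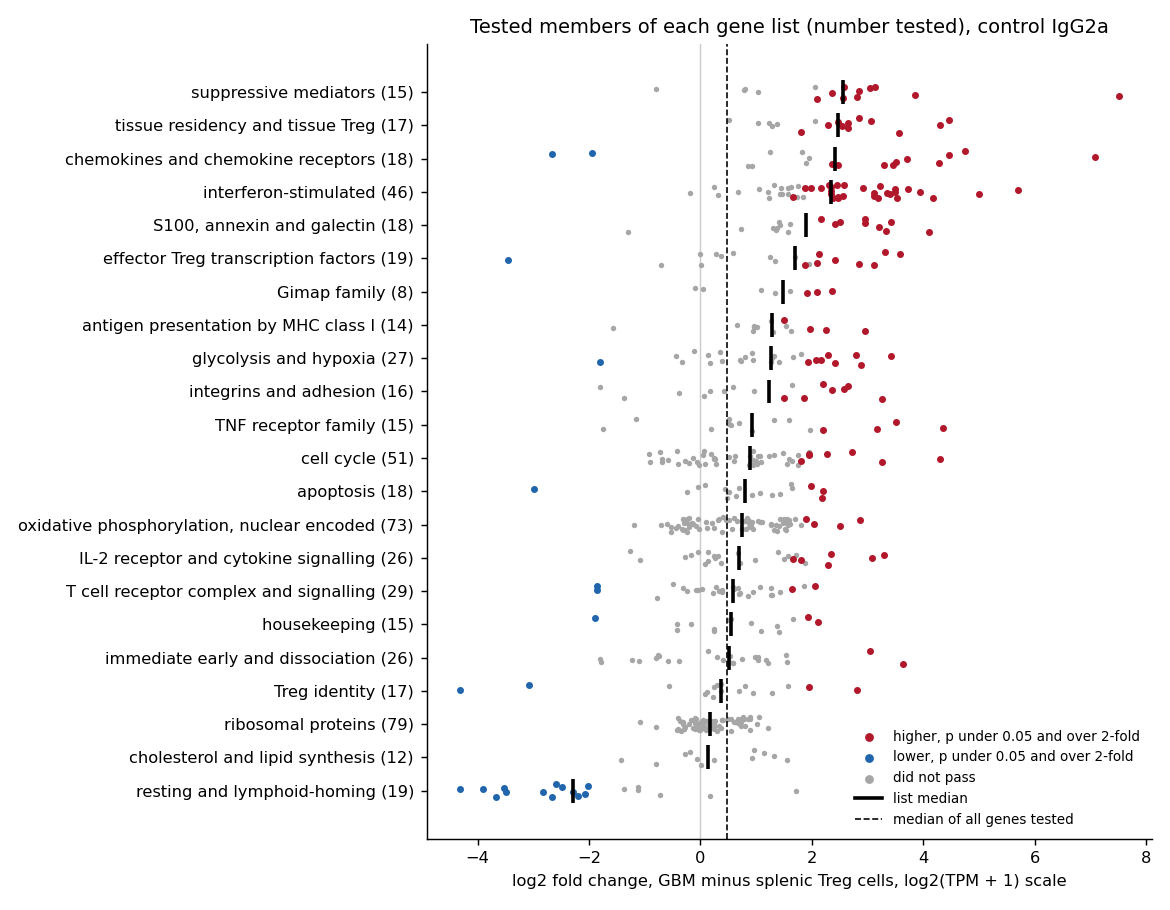
Log2 fold change, GBM minus spleen, of every tested member of each gene list (number tested in brackets), red and blue where the member passed the fold threshold, with list medians as black bars and the median of all genes (0.48) as a dashed line. The resting list lies left of the dashed line at a median of -2.29, the suppressive, tissue, chemokine and interferon lists lie right of it at 2.34 to 2.56, and ribosomal proteins sit at 0.17.

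Markers of cells other than Treg cells were present at different levels. Of 18 tested macrophage and microglia markers 4 passed the fold threshold as higher (22.2%, against 7.63% of all genes, median 1.66), and 17 of 18 fold changes were positive. Without tumor_369_a 9 of 19 passed and without tumor_79_a 2 of 13, at medians of 2.08 and 0.88. Apoe, a lipoprotein made by macrophages and glia, reached 9304 TPM in tumor_79_a, with C1qb at 1428 TPM and Lyz2 at 1374 TPM. The markers of neurons and glia summed to 43.6 to 268 TPM in GBM against 13.2 to 76 TPM in spleen, with the myelin gene Mbp at 57.9 ± 47.8 TPM against 6.22 ± 6.18 TPM and the astrocyte gene Gfap at 10.2 ± 16.5 TPM against 0.0643 ± 0.117 TPM. Genes that CT2A cells may express summed to 538 to 2763 TPM in GBM against 105 to 1207 TPM in spleen. Vim alone, also an adhesion gene above, made up 530 to 2684 TPM and 57.7 to 1154 TPM of these sums. All 7 tested members had positive fold changes, and 3 passed as higher (42.9%, median 2.13). Col3a1 was 40.8 ± 83.0 TPM in GBM against 0.311 ± 0.824 TPM in spleen, led by tumor_79_a at 189 TPM. Sparc was 50.3 ± 109 TPM against 0.347 ± 0.409 TPM. The list's median within a library was 0.50 to 5.86 in GBM and 0.15 to 1.70 in spleen, the highest in tumor_79_a. Sox2 was listed at 0 in all 12 libraries. B cell markers summed to 53.9 to 438 TPM in GBM against 54.1 to 1398 TPM in spleen, the highest in spleen_79_b. Of the CD8 T cell, NK cell and neutrophil markers none was abundant enough to be tested, and MHC class II and B cell lists had 2 tested genes each. The erythroid gene Alas2 had 0.128 ± 0.286 TPM in GBM against 15.4 ± 14.6 TPM in spleen. The part of these cells in the other differences was not tested beyond leaving out the libraries.

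In mice given αPD1 + αGITR the same contrast was made in other libraries, none of which is shared with the control groups. Of 7506 genes tested, 1189 were higher in GBM (15.8%) and 121 lower (1.61%) at a limma adjusted p under 0.05. Of the 36 genes called higher under IgG2a, all 36 had the same sign and 35 were also called, and of the 6 called lower 5 had the same sign and 2 were also called. The 23 risen genes described here were all called. Median log2 fold changes of the called genes were 4.29 under IgG2a and 3.79 after αPD1 + αGITR for the higher ones and -3.98 and -1.58 for the lower ones, where the IgG2a values chose the genes, so that the difference between these medians is not read. The median of all genes tested was 0.95 after αPD1 + αGITR. Gpr83 and Dtx1 were called again, at -3.36 and -3.12, and Pik3ip1, Atp1b1 and Asap1 were at -1.81, -1.35 and -1.32. Mir6236 had the opposite sign, at 2.79 (SE 1.26), with means of 52.3 TPM in GBM against 20.2 TPM in spleen. In a limma fit of all 4 groups the interaction of tissue and treatment was called for 0 of 8687 genes (1056 at an unadjusted p under 0.05, lowest adjusted p 0.119), so no difference between treatments passed, Mir6236 included (limma adjusted p = 0.314).

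**Figure D5:**
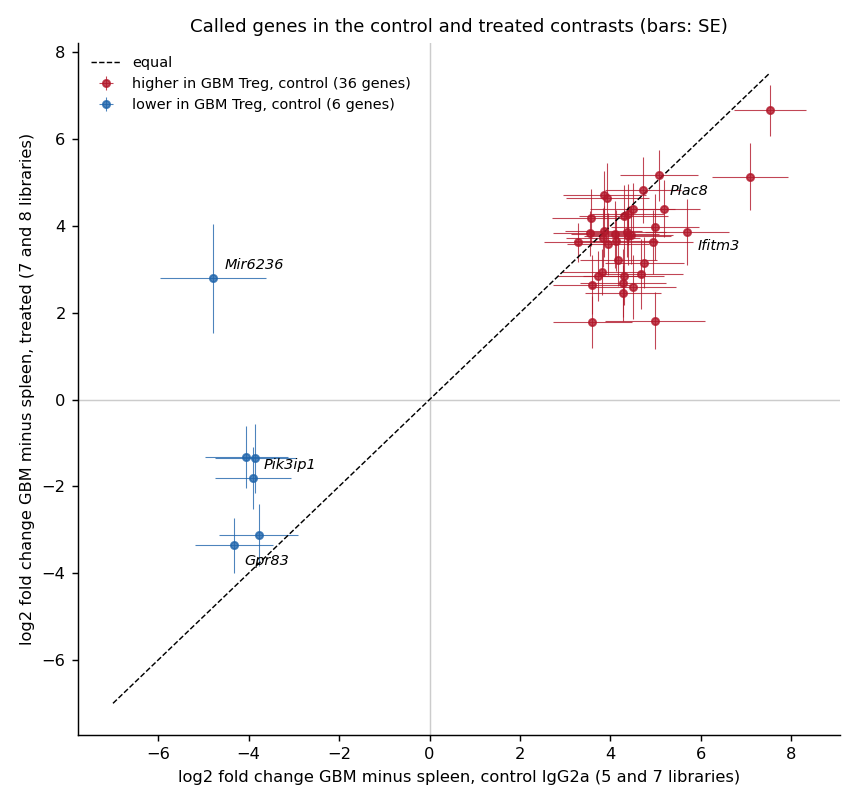
Log2 fold change, GBM minus spleen, under IgG2a (5 and 7 libraries) against that after αPD1 + αGITR (7 and 8 libraries) for the 36 genes called higher (red) and 6 called lower (blue) under IgG2a, with SE bars and a dashed line of equal change. The 36 red points lie above 0 on both axes, 5 blue points lie below 0 on both, and Mir6236 is below 0 under IgG2a and above it after treatment.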

How the data were processed

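Bulk RNA was sequenced by Smart-Seq2, which amplifies full-length cDNA from few cells, from sorted Treg cells of 5 GBM and 7 spleens under IgG2a. The authors aligned reads to mm10 with Tophat and computed TPM with RSEM (the submitters' processing notes name TopHat2 and bcl2fastq), and the deposited values are TPM plus 1. Here 1 was subtracted and log2(TPM + 1) analysed with limma 3.58.1 in R 4.3.3 (lmFit, eBayes with trend) for genes with a mean above 10 TPM in either group, with Benjamini-Hochberg adjustment. Read depth is unknown, so precision rests on the spread between libraries, and no counting interval is given. 1 unnamed column of the table was not used. The 12 libraries differ in every pair. TPM is scaled over all features, of which 10 took 31.9 to 78.3% of the total, so a change in those moves all others. The genes named were those past the adjusted threshold and not named in the study's text or plots, and in each list up to 4 tested members with the lowest p, all members in lists of 8 or fewer, and genes added where a count rests on them, and 1 gene is not reported here by name. Members and lists were chosen with earlier results of these data known. Alternatives were a pseudocount of 0.1 or 10, other filters, other scalings, a covariate, array weights, all 4 groups in 1 fit, averaged libraries, a replicate block and each library left out. Libraries left out in pairs, and the alternatives of the interaction, were chosen after seeing the data. In simulated data with this design (7380 genes), 44% of genes given a log2 change of 4, and 3% given one of 2, passed the adjusted threshold. In the same run 5 unchanged genes passed too. Each gene was drawn independently from a normal spread, without shifts of whole libraries, so these shares may not hold for the real data. Gene positions and promoters came from GRCm38, the same assembly as mm10.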

Additional observations from a re-analysis of the deposited data

Results flagged for a closer look

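In 6 of 58 groups of values checked for the described genes, 1 library stood apart from the others of its group by Dixon's criterion, and chance alone marks about 1 group in 20. In library tumor_369_a, AW112010 reached 2292 TPM, against 121 to 250 TPM in the other GBM libraries, and Glrx reached 342 TPM, against 96.4 to 126 TPM. In spleen_79_b, Runx2 was at 28.7 TPM and Lamp2 at 6.66 TPM, each the highest of the spleens. In spleen_76_a, Ctla2a was at 0.320 TPM, the lowest of the 7. In library tumor_76_a, Atp1b1 was at 8.13 TPM, while the other GBM libraries had 0.330 TPM or less.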

How the results depend on the processing

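All 29 described genes kept their direction in every fit that tested them, but these same libraries had chosen them for large changes. A mean above 10 TPM in both groups left 8 of the 29 to test, as the others reached that mean in 1 tissue only. Of those 8, 4 kept their call. A CV below 1 in each group left 7, and all 7 kept it. Calls depended on the processing. Of 42 calls (36 higher, 6 lower; 733 at the fold threshold), a pseudocount of 0.1 left 12 (11 and 1) and one of 10 gave 70 (64 higher). Without a filter on low values 6 were called (6 and 0; 1168 at the fold threshold), with a mean above 10 TPM in both groups 9 (8 and 1; 293) and with a CV below 1 in each group 7 (6 and 1; 282). Quantile normalization gave 102 (58 and 44) and TMM-type factors 16 lower, and the share of higher calls at the fold threshold was 76.8% as reported, 43.4% and 52.9% under these, and 57.3% after rescaling without the 10 most abundant features. With the number of detected features as covariate 10 were lower, with array weights 262 were called (215 and 47; 1225), with all 4 groups in 1 fit 131 (114 and 17; 1142), and with same-numbered libraries averaged 29 were called (26 and 3), with 13 of the 29 described genes among them. Leaving out each library gave 23 to 75 calls, 20 to 70 higher, 2 to 9 lower and 545 to 926 at the fold threshold. Calls were fewest without tumor_77_a and most without spleen_79_b, and genes at the fold threshold were fewest without tumor_79_a. Without tumor_369_a and tumor_79_a together 10 were called (9 and 1), and without spleen_79_a and spleen_79_d 20 were higher and 12 lower. The cause was not tested.

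Gimap3, at 0.05, had -0.34 after quantile normalization, -0.27 with TMM-type factors, -0.31 after rescaling, -0.19 with averaged libraries and -0.18 to 0.32 when each library was left out (below 0 in 4 of 12 fits). Gimap1, at -0.09, had 0.36 with array weights and -0.46 to 0.38 when each library was left out (above 0 in 3 of 12 fits). The interaction called 0 genes with a pseudocount of 10, TMM-type factors or no filter (1053, 922 and 2556 at an unadjusted p under 0.05 in limma).

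A replicate block on the 4 label numbers found in both tissues left 2 calls (2 higher and 0 lower), with 0 of the 29 described genes among them, and gave Gimap3 -0.35. Same-numbered libraries correlated at -0.0076, 0.18, -0.044 and -0.091 in their deviations from the group means, and 1 of the 4 tumors correlated best with its own number. With 4 values, and number 79 standing for 4 spleens, these correlations cannot decide whether same-numbered libraries are pairs. In the main fits they were not treated as pairs, so the p-values there take the 12 libraries as unrelated. Read depth is unknown and limits what values near 0 show.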
